A study of Homo sapiens with 10 samples.

Results

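The locus of HDAC9 and TWIST1 on chromosome 7 was examined in the human neuroblastoma line SK-N-SH, an established line of cultured cells, by chromatin immunoprecipitation and sequencing (ChIP-seq). It was defined as all peaks from 18.10 to 19.26 Mb of chromosome 7 on the hg19 build. HDAC9 was taken to extend from 18.127 to 19.042 Mb and TWIST1 from 19.155 to 19.157 Mb. The locus held 74 of the 26482 peaks in 8 deposited lists, and these merged into 21 of the 10581 sites of the series, where peaks that overlapped by 1 bp or more formed a site. The stretch was chosen with these lists known, so its peak numbers and ranks are given as a description and come with no test.

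Chromatin was precipitated with an antibody against MAML3 or against RARα from cells given 1 µM retinoic acid (RA) or vehicle only (untreated, UT). All cells had spent the 24 hours before in medium with charcoal-stripped serum, and the labels call all of them control cells. By the labels, each antibody and treatment had 2 replicates, called libraries here, which gave the 4 groups MAML3 RA, MAML3 UT, RARα RA and RARα UT. The labels do not say whether those of a group came from separate cultures. The list of RARα UT 2 is named as merged, and from what is not stated. No p-value is reported, since the smallest two-sided p that permuting 2 libraries against 2 allows is 0.33. RNA was not measured in these libraries, so the activity of HDAC9 and TWIST1 is not addressed, and the identity of the cells could not be checked against marker genes.

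MAML3 is a mastermind-like protein, best known as a coactivator that joins the Notch intracellular domain and the DNA-binding protein RBPJ. RARα is a nuclear receptor that binds DNA together with a retinoid X receptor and is activated by retinoic acid. HDAC9 encodes a class IIa histone deacetylase that binds MEF2 transcription factors and represses their targets. TWIST1 encodes a basic helix-loop-helix transcription factor of the neural crest and of mesenchyme, which can drive epithelial cells towards a mesenchymal state. In the mouse, several stretches within Hdac9 act as enhancers of Twist1 in the limb buds and branchial arches, and in people TWIST1 loss causes Saethre-Chotzen syndrome, a disorder of skull suture fusion. In the RefSeq gene table, which is on another build, no protein-coding gene lies between HDAC9 and TWIST1.

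The start of the whole HDAC9 gene had no peak of any list in its neighbourhood, which does not cover the internal starts. The first site within the gene began 125 kb after its start, and the nearest peak before the gene ended 83.8 kb away. That peak, at 18043150 to 18043249, was in MAML3 UT 2 alone and was at percentile 0.533 of its list. RefSeq gives 5 start windows for HDAC9 on GRCh38.p14, and 2 of them are shown, each as the 250 bases before the start. The first is that of the start of the whole gene, where no peak was near. The other is an internal start, shown for its match to AGGTCA, the core motif that retinoid receptors recognise. Capitals mark matches on either strand to AGGTCA or to TGGGAA, the core of the RBPJ motif.
HDAC9 gene start, chr7:18086575-18086824, plus strand, GRCh38.p14: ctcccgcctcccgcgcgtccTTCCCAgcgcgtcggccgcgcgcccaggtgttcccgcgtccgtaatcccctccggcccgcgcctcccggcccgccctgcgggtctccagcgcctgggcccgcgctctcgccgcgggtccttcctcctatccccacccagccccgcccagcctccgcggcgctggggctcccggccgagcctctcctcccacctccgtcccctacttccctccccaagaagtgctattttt
HDAC9 internal start, chr7:18495499-18495748, plus strand, GRCh38.p14: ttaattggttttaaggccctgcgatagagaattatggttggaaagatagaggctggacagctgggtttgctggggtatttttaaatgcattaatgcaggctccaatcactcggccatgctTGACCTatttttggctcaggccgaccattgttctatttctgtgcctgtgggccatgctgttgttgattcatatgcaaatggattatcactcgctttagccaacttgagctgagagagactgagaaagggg
The gene start window held 1 match to TGGGAA and 0 to AGGTCA, and the internal window held 0 and 1. Over the 250 bases before the start in 35116 RefSeq windows, 20.8% held TGGGAA and 12.1% held AGGTCA on either strand. The E-box CANNTG, the motif of helix-loop-helix proteins such as TWIST1, was matched 1 time in the gene start window and 3 times in the internal one, and 61.8% of all windows held it. These matches overlapped neither each other nor the marked ones. The internal start was not placed among the peaks, because its coordinates and those of the peaks are on different builds. For the same reason no letters of the peaks themselves are shown, and whether a peak lay in an intron or an exon was not examined.

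MAML3 peaks lay mostly within HDAC9, which spans 915 kb of the 1.16 Mb of the locus. None lay on TWIST1, whose extent is far shorter. The MAML3 lists held 17 and 14 peaks in the locus after RA, against 7 and 20 in untreated cells. These came out of lists of 7532 and 6230 peaks for RA 1 and RA 2, and of 2222 and 6759 peaks for UT 1 and UT 2. These raw numbers followed no order by treatment, and the lowest was that of the shortest list. As shares of their lists they were lower after RA, with 0.226 and 0.225% against 0.315 and 0.296% in untreated cells. In MAML3 lists shortened to 2222 peaks they were higher after RA, with 12 and 11 peaks against 7 and 8. The order thus depended on how list length was treated. RARα lists held 4 and 5 peaks after RA, out of 1103 and 1064, against 5 and 2 in untreated cells, out of 1321 and 251. In RARα lists shortened to 251 peaks they were 1 and 2 after RA, against 3 and 2 in untreated cells. The depth of the reads is unknown here, so a list's length alone shows how much was called in it.

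Of the 21 sites, 18 lay within HDAC9 and 3 between HDAC9 and TWIST1. None lay before HDAC9, on TWIST1 or in the part of the locus beyond TWIST1. All RARα peaks lay within HDAC9. Since HDAC9 makes up most of the locus and TWIST1 very little of it, these counts show neither a preference nor an avoidance. The next peak beyond TWIST1 in any list was in MAML3 RA 1 at 19366901 to 19367200, 210 kb after the gene. Within HDAC9, 9 of the sites stood in 197 kb from 18734201 to 18930849, and the longest stretch between neighbouring sites, 173.1 kb, came just before. The 197 kb were drawn around the highest ranked site and end at sites, so their density is a description only. These 9 included 6 of the 7 sites that all 4 MAML3 lists held.

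**Figure D1:**
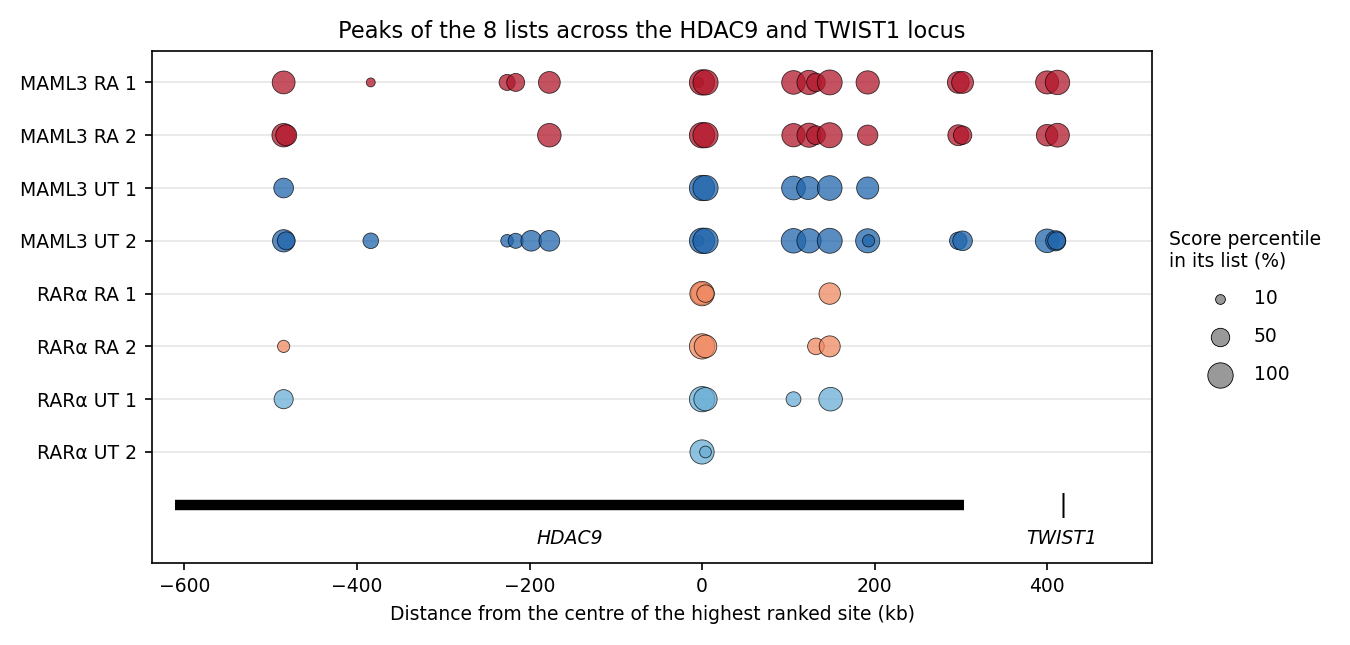
Peaks of each list (rows) against the distance from the centre of the highest ranked site in kb, with the extents of HDAC9 and TWIST1 drawn at the bottom; the area of a point grows with the score percentile of the peak in its list. All MAML3 lists have peaks in the later part of HDAC9, the MAML3 lists except UT 1 have peaks in the gap before TWIST1, and the RARα lists have no peak more than 148 kb after the highest ranked site.

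The locus was dense for both antibodies. It was chosen with these lists known, so its place among windows set without regard to peaks is a description only. The genome was divided into 2646 consecutive windows of the length of the locus, 1.16 Mb. The locus held 21 MAML3 sites, against a median of 3 per window, and 18 windows (0.68%) held as many or more. It held 7 RARα sites, against a median of 0, and 16 windows (0.605%) held as many or more. Other places in the genome were denser, with up to 35 MAML3 sites and 16 RARα sites in a window. Single lists gave a like place, since between 3 windows (0.113%, MAML3 UT 2) and 39 windows (1.47%, RARα RA 1) held as many peaks as the locus or more.

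**Figure D2:**
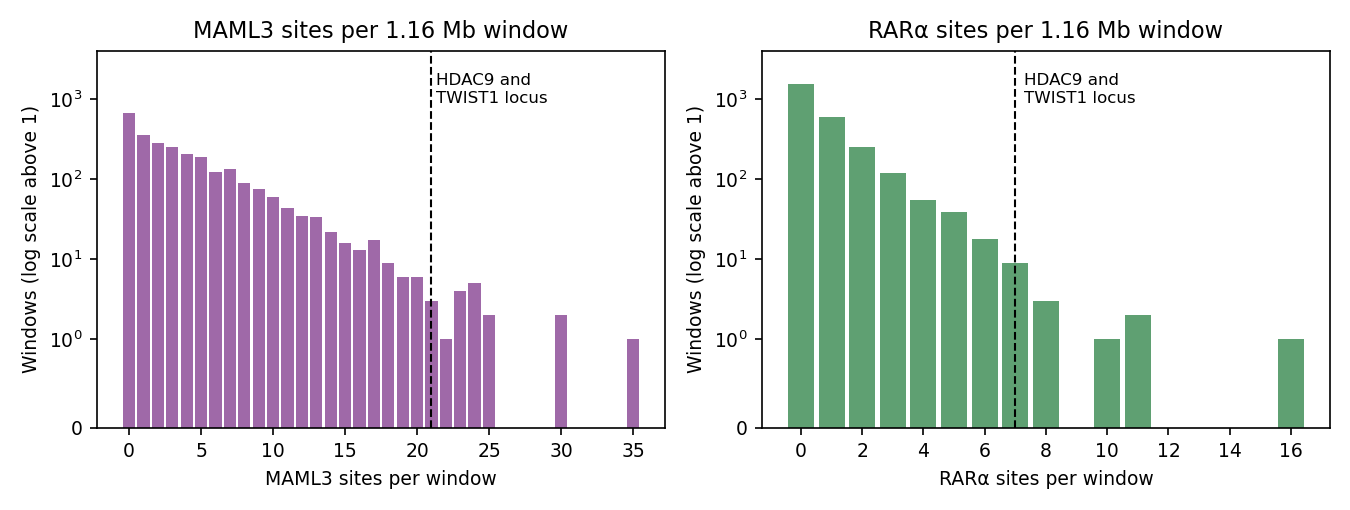
Number of genome windows of 1.16 Mb (vertical axis, log scale above 1) by the number of MAML3 sites (left) or RARα sites (right) they hold, with the locus marked by a dashed line at 21 and 7 sites. The locus stands in the sparse upper tail of both distributions, below the maxima of 35 and 16.

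All 4 MAML3 lists held 7 of the 21 sites, and 5 further sites were held by both RA lists and UT 2. Over all 10251 MAML3 sites of the genome, 16.8% were in all 4 lists and 23.5% in 3 lists. The remaining 9 sites were 1 held by both RA lists alone, 4 held by RA 1 and UT 2, 1 held by RA 2 and UT 2, and 3 held by UT 2 alone, while over the genome the shares of these patterns were 9.37, 8.72, 3.22 and 12.7%. Sites in any 1 list made up 37.2% over the genome. UT 1, the shortest list, had no site in the locus that the other 3 lists lacked. By the tags in the list names, RA 1 and UT 2 share a lane number, as do RA 2 and UT 1. The UT lists also share their index and library tags, and no label says whether they are separate libraries. Whether lanes bear on the 4 sites of RA 1 and UT 2 was not tested. Without UT 1, 12 sites were in every remaining list.

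The highest ranked site of the locus was the same in all 8 lists. It spanned 18737696 to 18738450, about 66.8% of the way along HDAC9 from its start and 416.6 kb from TWIST1. Peaks were ranked within their list by the score that the authors deposited, as a percentile in which tied peaks share their middle rank. The MAML3 peak was at percentile 99.9 and 99.9 in the RA lists, against 99.7 and 99.9 in the UT lists. Its score stood at the usual ceiling of 3100 in RA 1, RA 2 and UT 2, so these peaks could not be ranked further. The RARα peak was at percentile 92.3 and 99.4 in the RA lists, against 99.4 and 90.6 in the UT lists. RARα RA 1 had 2 peaks in this site, at 92.3 and 75.5, of which the higher was used. The groups overlapped for RARα, and mean percentiles were 95.9 ± 4.99 after RA and 95.0 ± 6.22 in untreated cells (SD, n = 2 each).

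A second site in all 8 lists began 3.5 kb further on, at 18741946 to 18742545. MAML3 was at percentile 98.8 and 98.3 in the RA lists, against 98.9 and 99.2 in the UT lists. RARα ranked lower here than MAML3 and varied more, with 44.4 and 78.3 in the RA lists against 83.5 and 16.9 in the UT lists. In each treatment the 2 RARα libraries were further apart than the treatments were, with means of 61.4 ± 24.0 after RA and 50.2 ± 47.1 in untreated cells (SD, n = 2 each). Over the genome, 73 of 10581 sites (0.69%) were in all 8 lists, and these 2 were the members in the locus.

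The third ranked MAML3 site in every list, at 18886196 to 18886749, was held by 7 of the 8 lists. MAML3 was at percentile 96.4 and 97.2 in the RA lists, against 94.3 and 96.8 in the UT lists. RARα was at 69.9 and 67.0 in the RA lists, against 86.0 in UT 1, and had no peak in UT 2, whose list had 251 peaks. The same 3 sites thus led the locus in each of the 4 MAML3 lists, in the same order. RARα RA 1 and UT 1 put the third of them ahead of the second.

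**Figure D3:**
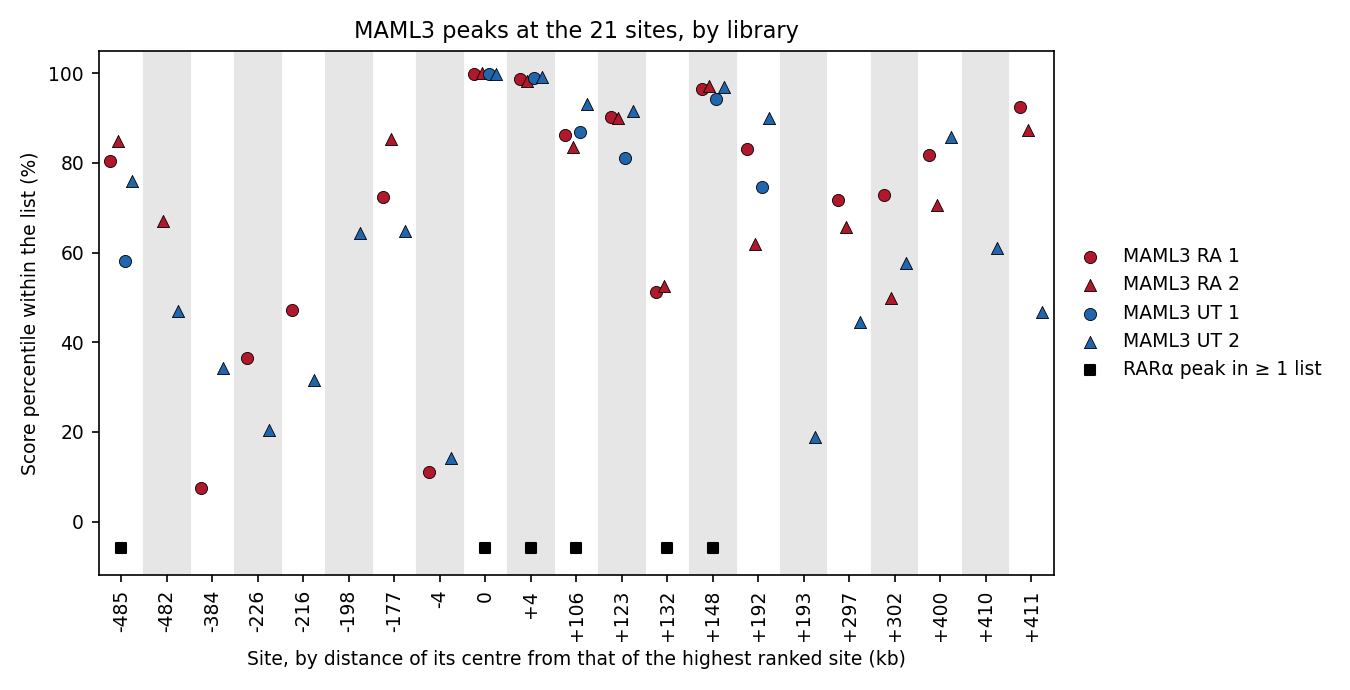
Score percentile of the MAML3 peak within its list (vertical axis, %) at the 21 sites, which are ordered by their distance in kb from the highest ranked one; red points are RA libraries, blue points UT libraries, circles replicate 1 and triangles replicate 2, and black squares mark sites with a RARα peak in at least 1 list. The 3 leading sites lie above 94% in all 4 libraries, and the site at +411 kb has RA points at 92.5 and 87.3% and a single UT point at 46.7%.

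The other 4 sites of all MAML3 lists ranked lower and differed more between libraries. The site at 18843496 to 18843950 was at percentile 86.1 and 83.5 in the RA lists, against 86.9 and 93.1 in the UT lists. The site at 18861246 to 18861850 had 90.2 and 89.9 in the RA lists, against 81.2 and 91.5 in the UT lists. The site at 18861246 therefore ranked above that at 18843496 in both RA lists and below it in both UT lists. At 18929647 to 18930050 the values were 83.1 and 62.0 in the RA lists, against 74.6 and 90.1 in the UT lists, and the groups overlapped. At 18252350 to 18252900, the first site of HDAC9, they were 80.3 and 84.8 in the RA lists, against 58.2 and 76.1 in the UT lists.

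The highest ranked site could not be ordered between lists because of the ceiling. Among the other 6 sites of all MAML3 lists, both RA percentiles were above both UT percentiles at 1, that at 18252350. They were below both UT percentiles at 2, those at 18741946 and 18843496. Over the genome, the RA percentiles were both above at 25.6% of 1706 such sites below the ceiling and both below at 6.04%. The lists differ in length and in their scores, so these places are not levels of binding. Between libraries of a shared lane tag, RA 1 against UT 2 and RA 2 against UT 1, the RA percentile was higher in both at 1 of the 6 sites, that at 18252350. It was lower in both at 3, those at 18741946, 18843496 and 18929647, and the lanes differed in direction at 2. At 18741946 the differences were only -0.38 and -0.53 points. The same counts by lane were not made over the genome, so whether they are particular to the locus was not examined.

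The site nearest to TWIST1 ranked higher in both RA lists than in the untreated list that held it. It spanned 19149351 to 19149750 and ended 5.2 kb before the gene as placed here. TWIST1 is read from the opposite strand, so this is the side of its 3′ end, and the RefSeq record of TWIST1 on the other build is longer than the extent used here, with 4.59 kb. MAML3 was at percentile 92.5 and 87.3 in the RA lists, against 46.7 in UT 2 and no peak in UT 1. Both RA percentiles thus stood at least 40.6 points above UT 2. Of the 3947 MAML3 sites in both RA lists and UT 2 with scores below the ceiling, 130 (3.29%) had differences as large in both RA lists. No RARα list had a peak there.

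The neighbouring sites between the genes did not rank in this order. At 19138146 to 19138600, 16.4 kb from TWIST1, MAML3 was at 81.8 and 70.6 in the RA lists, against 85.9 in UT 2 and no peak in UT 1. The remaining site between the genes, at 19147600 to 19147849, was in UT 2 alone, at percentile 61.0. A pair of sites at the end of HDAC9 differed from each other as well. At 19034946 to 19035345 the percentiles were 71.8 and 65.8 in the RA lists against 44.4 in UT 2, and at 19040051 to 19040545 they were 72.9 and 49.9 against 57.6. The site at 18560546 to 18561095, in the middle of HDAC9, had 72.3 and 85.2 in the RA lists against 64.8 in UT 2. None of these 3 sites had a peak in UT 1.

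Over the 11 sites of the locus in both RA lists and UT 2 with scores below the ceiling, both RA percentiles were above that of UT 2 at 4 and below it at 5. Over the genome the shares were 35.0 and 37.4%. The locus as a whole thus had no single direction. The 4 sites above UT 2 began at 18252350, 18560546, 19034946 and 19149351. When all MAML3 lists were shortened to their 2222 highest scores, 3 of these, at 18560546, 19034946 and 19149351, were in both RA lists and in neither UT list. Over the genome, 7.99% of 3619 sites were gained in this way in the shortened lists and 4.78% were lost, and no site of the locus was lost. The shortened lists reuse the same scores, and UT 1 already lacked these 3 sites, so this is no separate support. At 19034946 the RA scores, 243.84 and 196.74, were little above the lowest kept, 235.67 and 190.34. At 18560546 the UT 2 score, 224.24, was little below the lowest kept, 238.58. The scores at 19149351 lay further from these limits. The shortened lists held 12 and 11 peaks of the locus after RA, against 7 and 8 in untreated cells.

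In the full lists, 1 MAML3 site of the 21 was gained, that is, held by both RA lists and neither UT list. Over the genome 9.37% of MAML3 sites were gained. The gained site spanned 18869901 to 18870245, within HDAC9, and was at percentile 51.1 and 52.6 in the RA lists. In the shortened lists no library held it, so it is not among the 3 sites gained there. RARα RA 2 also had a peak there, at percentile 39.9, and the other 3 RARα lists had none. Peak numbers run in order of position, and MAML3 UT 2 lacks the numbers 5816 and 5817 between its listed peaks on either side of this site, which end at 18861749 and begin at 18886250. Peaks of UT 2 with these numbers were not analysed here, so the absence of this site from UT 2 cannot be told apart from their removal. Such unlisted numbers stood beside 70 of 936 gained sites of the genome (7.48%) in UT 2. No MAML3 site of the locus was lost, against 0.683% over the genome.

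The count of gained sites depended on UT 2. Without UT 2, 6 sites were gained, which are the 1 above and the 5 held by both RA lists and UT 2. Over the genome, 9.37% of MAML3 sites were held by both RA lists alone and 21.9% by both RA lists and UT 2. This dependence on UT 2 was thus not particular to the locus. Without UT 1, 3 sites were lost, which are those that UT 2 held alone, as it did 12.7% of sites over the genome. These 3 lay at 18539500 to 18539849, at 18930750 to 18930849 and at 19147600 to 19147849, at percentiles 64.3, 18.9 and 61.0 of UT 2. The 5 sites in 2 lists of different treatments ranked low or in the middle. The sites beginning at 18353501, 18511600, 18521550 and 18734201 were at percentiles 7.42, 36.5, 47.2 and 11.0 in RA 1, and at 34.3, 20.5, 31.7 and 14.1 in UT 2. The site beginning at 18255846 was at 67.1 in RA 2 and at 47.1 in UT 2.

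RARα held 7 sites in the locus, and each of them overlapped a MAML3 site. Over the genome 84.4% of 2120 RARα sites overlapped a peak of any MAML3 list. From the side of MAML3, 6 of the 21 sites overlapped a peak of any RARα list, against 17.0% over the genome. Of the 7 sites in all MAML3 lists, 5 did, against 55.7% over the genome, and the exceptions were those at 18861246 and 18929647. The gained MAML3 site also did, against 12.7% of gained sites over the genome. None of the 5 sites in 3 MAML3 lists and none of the 3 in 1 list had a RARα peak, against 19.3 and 2.78% over the genome. Of the 6 MAML3 sites with a RARα peak, 5 were thus in all MAML3 lists, against 961 of 1741 over the genome. The 3 sites between the genes had no RARα peak. With so few sites these numbers cannot be set apart from those of the genome.

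With 2 RARα lists per treatment, a site in 3 or 4 lists is in both treatments by definition. The RARα sites at 18737847 and 18742001 were in all 4 RARα lists, which 6.75% of RARα sites over the genome were. The site at 18886251 was in 3 lists, as were 15.8%. No RARα site of the locus was gained and none was lost, against 5.42 and 0.472% over the genome. The other 4 sites were each in 1 list, as were 56.0% over the genome. RARα UT 1 alone had a peak at 18843697 to 18843896, at percentile 30.4, and RARα RA 2 alone had that at 18869951 to 18870150. These counts rested on single libraries. Without RARα RA 1, 2 sites were gained, without UT 1, 1 site was gained, and without UT 2, the list of 251 peaks, 2 sites were lost. These sites were in RA 2 alone, in both RA lists and UT 1, and in UT 1 alone. Over the genome, 14.2, 13.6 and 24.4% of RARα sites had these patterns, so such moves were not particular to the locus.

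In the first MAML3 site of HDAC9, RARα peaks of different treatments stood side by side. RARα RA 2 had a peak at 18252701 to 18252849, at percentile 18.8, and UT 1 had one at 18252497 to 18252664, at percentile 54.6. They did not overlap and therefore counted as separate RARα sites, but both lay inside the MAML3 site at 18252350 to 18252900.

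Where both replicates of a treatment held a RARα site, the overlap with MAML3 sites of both replicates was complete in the locus. After RA this was 3 of 3 RARα sites, against 81.7% of 557 over the genome. In untreated cells it was 2 of 2, against 56.1% of 189 over the genome. With so few sites the numbers cannot be set apart from those of the genome. Counting sites of at least 1 library, 5 of 5 RARα sites overlapped a MAML3 site in each treatment.

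At the 6 shared sites of the locus, RARα peaks had smaller median widths than MAML3 peaks and mostly lay inside them. Of the 16 RARα peaks in the locus, 15 lay wholly within a MAML3 peak of at least 1 list. The same share over the genome was not computed, so whether this is particular to the locus was not examined. At the highest ranked site the median width was 500 bp for RARα and 650 bp for MAML3, at the second 325 and 525 bp, and at the third 364 and 500 bp. RARα RA 1 split the highest ranked site into 2 peaks, of 185 and 359 bp, where the other RARα lists had 1 peak of 500 to 600 bp. At the second site RARα UT 2 had a peak of 50 bp. The median centres of the RARα peaks lay between 26 bp before and 71.5 bp after those of the MAML3 peaks at the 6 shared sites. The MAML3 lists themselves placed the centre of a site within 108 bp of each other wherever more than 1 list held it. Many edges fall on steps of 50 bp, to an extent that differs between lists, so offsets of this size are near the resolution of the lists.

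**Figure D4:**
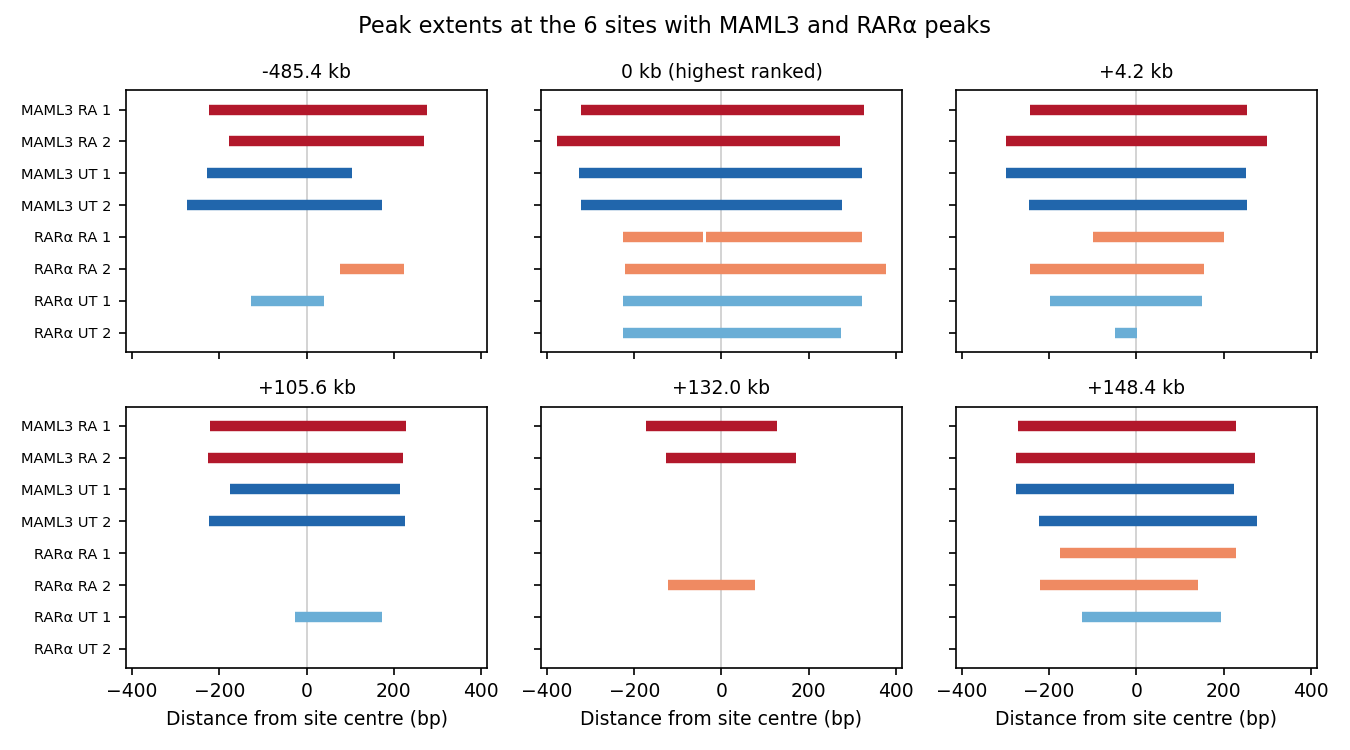
Extent of each peak (bars) relative to the centre of the merged site in bp, for the 6 sites with peaks of both antibodies, which are named by their distance from the highest ranked site; rows are the 8 lists, with RA above UT for each antibody. RARα bars lie inside the MAML3 bars in nearly all cases, the first site of HDAC9 has separate RARα peaks in RA 2 and UT 1, and the site at +132.0 kb has no UT bar.

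On both sides the locus ended in stretches without peaks in most lists. The last peak before it was 56.8 kb below its lower bound in MAML3 UT 2, at percentile 0.533, and between 434 kb and 3372 kb below in the other lists. The first peak after it was 106.9 kb above its upper bound in MAML3 RA 1, at percentile 48.9, and between 632 kb and 8442.5 kb above in the other lists. No site lay across a bound, so small moves of either bound leave the members as they are.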

How the data were processed

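The study deposited 1 peak list per immunoprecipitated library, 8 in all, and 2 input samples that were not analysed here. The labels' protocols give 15 cycles of amplification. Per the submitters' processing notes, the tools were BWA 0.5.9 and, without a version, MACS and bedtools, and the build was hg19. The threshold and the use of the inputs were not stated. Each deposited list holds the position and name of every peak and a score of the authors, of at least 70 with most of the highest at 3100. The score was used only to rank peaks within a list (mid-rank percentile), and sites with a MAML3 score at 3100 or above were left out of counts of order.

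Peaks of an antibody, or of all 8 lists, were merged into sites over the whole genome where they shared at least 1 bp, and the merging was tested on simulated data. Positions start at 1. Depth per library is unknown, so a site may be bound in a library whose list lacks it. Members and gene extents came from a rule made with earlier results of these data known. The named sites are every RARα site, every MAML3 site in all 4 lists, gained or lost, the highest ranked peak of each list and those nearest to TWIST1, and the remaining sites were added after their values were seen. A planned count of peaks at related genes was not run, because the RefSeq tables at hand are on GRCh38. Alternatives were another overlap, shorter lists, a distance of 1 kb to the other treatment and each library left out. Python 3.11.15, numpy 2.4.6, pandas 2.3.3 and matplotlib 3.10.9 were used.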

Additional observations from a re-analysis of the deposited data

How the results depend on the processing

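No paired analysis was possible because the results come from no test. Of 62 recomputed counts of sites, 48 stayed within 1.5 times the reported one. The MAML3 sites gained were 3 when each list kept its upper 50% by score and 3 in lists of equal length, against 1 reported, and the reported site was not among those in lists of equal length. The RARα sites on MAML3 sites after RA were 1 of 1 in lists of equal length and 5 of 5 for sites of at least 1 library, against 3 of 3. In untreated cells they were 1 of 1 in the highest 50% and 5 of 5 for sites of at least 1 library, against 2 of 2. With each library left out in turn, gained MAML3 sites ran from 1 to 6, lost ones from 0 to 3 and those in all lists from 7 to 12. Gained and lost RARα sites ran from 0 to 2 each, and RARα sites on MAML3 sites from 3 to 5 after RA and from 2 to 5 in untreated cells. The same ranges over the genome were not computed. Of 24 recomputed peak numbers per list, 17 stayed within 1.5 times. In the upper 50% the others were 3 for RARα RA 2, 12 for MAML3 UT 2 and 1 for RARα UT 2, and in lists of equal length they were 8 for MAML3 UT 2, 1 and 2 for RARα RA 1 and RA 2, and 3 for RARα UT 1. An overlap of 50% of the shorter peak, joining peaks within 1 kb, and requiring no peak of the other treatment within 1 kb moved no count of sites by over 1.5 times. With unknown depth, the lists of 2222 and 251 peaks limit what absence from UT 1 (MAML3) and UT 2 (RARα) can show.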
